A study of Mus musculus with 14 samples.

Results

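Small leucine-rich proteoglycans are secreted matrix proteins with a core of leucine-rich repeats, and the 10 genes described here, Dcn, Bgn, Lum, Fmod, Omd, Aspn, Ogn, Prelp, Chad and Kera, were taken from a given list of symbols matched to the gene IDs of the count table. All 10 matched, among 47729 genes in the table, and all 10 were among the 15015 genes that passed the filter on low counts. The RNA came from synovium of the knee, the tissue that lines the joint, in C57BL6 mice aged 16 weeks, and was collected 10 days after an injection into the joint. Of the 14 libraries, 5 held CD200-CD105+ cells from arthritic mice, 5 held CD200+CD105- cells from arthritic mice, and 4 held CD200+CD105- cells from non-immunized mice.

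Antigen-induced arthritis was set off by immunization with a methylated albumin of cattle (mBSA), given with complete Freund's adjuvant, and a later injection of mBSA into the joint, while non-immunized mice received PBS. Every library was made from 200 to 500 cells sorted as TER119-, CD31-, CD45- and CD51+, so all groups share that gate, and each library is a small pool of cells. The study asked how osteoprogenitor populations of the synovium, defined by CD200 and CD105, differ in arthritis. No non-immunized CD105+ cells are analysed here, so CD105+ and CD200+ cells can be set side by side within arthritis, while the comparison of arthritic CD105+ with non-immunized CD200+ cells changes both cell type and disease. Nothing in the labels ties libraries to separate animals, so p-values measure the spread between these libraries only. In such sorted pools, fewer cells of a type and less RNA per cell cannot be told apart.

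Proteins of this family bind collagen fibrils and set their width and spacing, and several also bind growth factors of the TGF-beta and BMP families. Decorin (Dcn) and biglycan (Bgn) carry chondroitin or dermatan sulfate chains, and asporin (Aspn) is their relative with an aspartate-rich stretch. Lumican (Lum), fibromodulin (Fmod), keratocan (Kera) and osteomodulin (Omd, also called osteoadherin) are the keratan sulfate members, with Prelp as a close relative whose basic end binds heparin. Osteoglycin (Ogn, also called mimecan) forms a class with epiphycan and opticin, and chondroadherin (Chad) is a cartilage protein without such chains. Osteomodulin is a protein of mineralized bone matrix, keratocan is best known from the cornea and from tendon, and decorin is abundant in most connective tissues.

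The genes lie in small clusters of the GRCm38 genome, with positions from GENCODE M21. On chromosome 10, Dcn (97479609 to 97518143), Lum (97565128 to 97572703) and Kera (97606879 to 97613692) follow each other on the plus strand, with 47.0 kb between Dcn and Lum and 34.2 kb between Lum and Kera. On chromosome 13, Aspn (49544443 to 49567565), Omd (49582462 to 49592822) and Ogn (49608046 to 49624501) are separated by 14.9 kb and 15.2 kb. Prelp (133910304 to 133921414, minus strand) and Fmod (134037254 to 134048277, plus strand) lie 115.8 kb apart on chromosome 1. Bgn lies on the X chromosome (73483602 to 73495933) and Chad on chromosome 11 (94565047 to 94569127). Aspn, Omd and Ogn lie opposite to Cenpp, Prelp opposite to the antisense gene Gm15851 with 350 exonic bases in common, and Chad opposite to Acsf2. Whether the counting used strand is not stated in the labels, so reads of such antisense pairs cannot be told apart.

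The promoter windows of Ogn, Omd, Prelp and Bgn are shown because these genes passed a test below. That of Chad is shown because its CD200+ groups did not overlap, a difference that did not pass the test. Each is the 250 bases before the RefSeq start of the gene (GRCm38.p6), 5′ to 3′ on the gene's strand, with capitals marking matches to any of 4 motifs on either strand.

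Ogn, chr13:49607765-49608014, plus strand: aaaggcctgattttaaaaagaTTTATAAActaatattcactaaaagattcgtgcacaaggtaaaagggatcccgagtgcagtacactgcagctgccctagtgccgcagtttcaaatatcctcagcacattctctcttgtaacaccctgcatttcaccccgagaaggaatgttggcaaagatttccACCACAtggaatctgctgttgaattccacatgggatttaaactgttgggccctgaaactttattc
Omd, chr13:49582212-49582461, plus strand: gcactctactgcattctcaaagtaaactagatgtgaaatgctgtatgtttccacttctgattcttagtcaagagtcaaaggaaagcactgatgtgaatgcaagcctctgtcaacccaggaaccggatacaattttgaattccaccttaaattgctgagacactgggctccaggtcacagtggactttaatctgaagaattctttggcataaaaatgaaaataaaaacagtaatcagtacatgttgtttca
Prelp, chr1:133921402-133921651, minus strand: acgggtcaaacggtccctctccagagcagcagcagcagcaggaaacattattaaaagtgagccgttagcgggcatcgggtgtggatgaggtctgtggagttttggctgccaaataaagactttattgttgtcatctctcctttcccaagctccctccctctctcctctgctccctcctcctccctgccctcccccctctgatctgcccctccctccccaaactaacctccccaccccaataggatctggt
Bgn, chrX:73483351-73483600, plus strand: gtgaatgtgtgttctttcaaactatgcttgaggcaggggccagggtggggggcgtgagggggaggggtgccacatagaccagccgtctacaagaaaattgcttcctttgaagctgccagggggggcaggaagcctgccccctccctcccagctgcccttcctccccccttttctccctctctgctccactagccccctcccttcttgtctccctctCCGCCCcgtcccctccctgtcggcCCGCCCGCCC
Chad, chr11:94564797-94565046, plus strand: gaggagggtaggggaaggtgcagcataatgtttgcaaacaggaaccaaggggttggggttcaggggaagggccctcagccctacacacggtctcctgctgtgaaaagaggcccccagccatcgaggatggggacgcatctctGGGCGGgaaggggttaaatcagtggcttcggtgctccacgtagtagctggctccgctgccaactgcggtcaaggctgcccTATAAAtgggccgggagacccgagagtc

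The motifs searched were a TATA box (TATAAA), a RUNX core (TGTGGT), an AP-1 site (TGANTCA) and a GC box (GGGCGG). Among 32536 windows of the same length, 12.3% held the TATA box, 14.0% the RUNX core, 6.73% the AP-1 letters and 33.0% the GC box. Ogn held the TATA letters on both strands in overlapping matches, 227 and 229 bases before the start, and a RUNX core 65 bases before it. Chad held TATAAA 28 bases before the start and a GC box at 108 bases, and Bgn held 3 GC boxes, at 34, 10 and 6 bases. No match was found in the Omd and Prelp windows. Windows were at hand for 8 of the 10 genes. A match describes letters only.

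Depth differed between libraries. Counts on genes ranged from 5968096 to 18553803 in CD105+ libraries, from 2919666 to 15371670 in arthritic CD200+ libraries and from 5365927 to 18203642 in non-immunized CD200+ libraries. The rest of each library was spike-in RNA, which made up 92% of library 6, 87.4% of library 5 (both arthritic CD200+) and 85.4% of library 2 (non-immunized CD200+). Levels are given as CPM, gene counts scaled to the TMM-corrected library size, and 3 counts, the limit that a count of 0 allows, correspond to 0.170 to 0.910 CPM depending on the library. Of the 22 zero values among the 10 genes, 10 fell in these 3 libraries, and 2 in the other 6 CD200+ libraries. The sort marker Cd200 was at 318 to 541 CPM in arthritic CD200+ and 428 to 796 CPM in non-immunized CD200+ libraries. In CD105+ libraries it had 0 counts in 4, and 11.4 CPM in library 12. Eng, which encodes CD105, was at 0 to 11.1 CPM in CD105+ libraries, at 0 to 1.35 CPM in arthritic CD200+ libraries and at 0.315 to 12.2 CPM in non-immunized CD200+ libraries, so its RNA did not separate the sorted populations.

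Summed over the 10 genes, small leucine-rich proteoglycan RNA was lowest in CD105+ libraries and highest in non-immunized CD200+ libraries. The sum was 1309 ± 734 CPM in CD105+ cells of arthritic mice (SD, n = 5), 3655 ± 1405 CPM in arthritic CD200+ cells (SD, n = 5) and 6694 ± 1208 CPM in non-immunized CD200+ cells (SD, n = 4). Single libraries spanned 551 to 2420 CPM in CD105+ cells, 1356 to 4655 CPM in arthritic CD200+ cells and 5611 to 8417 CPM in non-immunized CD200+ cells. The last range did not overlap the others, while CD105+ and arthritic CD200+ ranges overlapped through library 6.

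**Figure D1:**
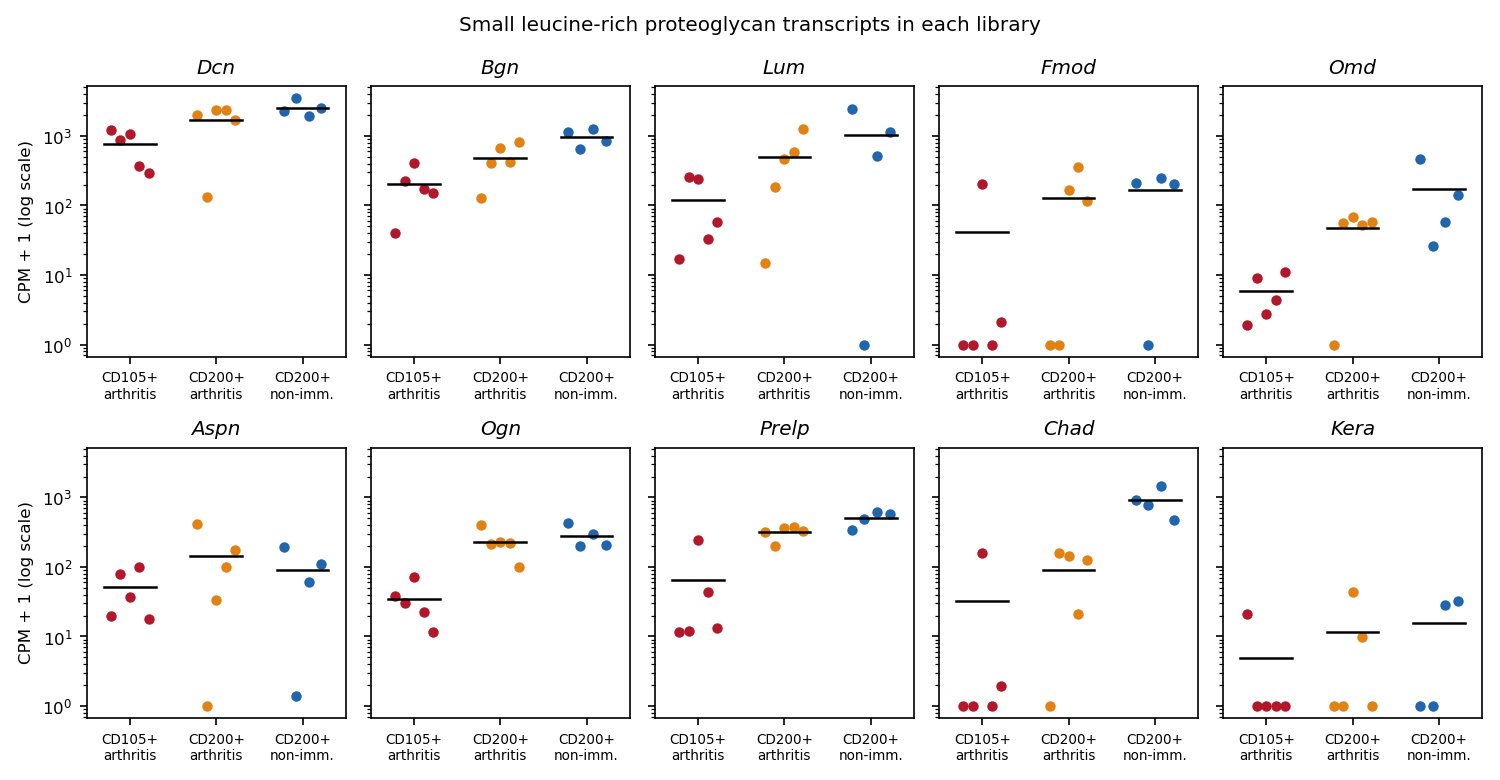
CPM + 1 on a log axis for each of the 10 genes in each library, with CD105+ arthritic (red), CD200+ arthritic (orange) and CD200+ non-immunized (blue) libraries from left to right; horizontal lines are group means. Ogn sits at 10.4 to 69.8 CPM in CD105+ libraries and at 97.8 to 404 CPM in arthritic CD200+ libraries. Chad values do not overlap between the CD200+ groups, a difference that did not pass the test.

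Within arthritis, CD105+ cells held less Ogn RNA than CD200+ cells, and Ogn was the member that passed the test. Ogn was at 37.3, 29.4, 69.8, 21.6 and 10.4 CPM in the CD105+ libraries, against 404, 211, 224, 218 and 97.8 CPM in the arthritic CD200+ libraries. Each CD105+ value lay below every CD200+ value. Ogn fell 6.86-fold (log2 fold change -2.78, SE 0.500, edgeR quasi-likelihood test, Benjamini-Hochberg adjusted p = 0.00414). In this comparison 11.3% of all genes passed in either direction and 6.48% passed as lower, so 1 of 10 members is near the background. With library sizes taken from the spike-ins, the Ogn log2 fold change was -1.54 (adjusted p = 0.337), while that scaling moved the median of all genes by 1.27. Relative to the median of all genes, the Ogn change was -2.76 with spike-in scaling and -2.73 with TMM. Subtracting the median takes out the overall shift of the scaling, so the first value is no separate check of the call.

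The log2 fold changes of all 10 members were below 0 in this comparison, with a median of -1.58 against -0.05 for all genes tested, although Aspn turned to 0.14 under spike-in scaling. Ogn was also the single member whose groups did not overlap as lower, which held for 6.33% of all genes. The members that did not pass are given by their values.

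Decorin and biglycan, the class with chondroitin or dermatan sulfate chains, were detected in every library. Dcn was at 1206, 870.5, 1064, 375 and 289.7 CPM in CD105+ libraries, against 1972, 132, 2358, 2346 and 1689.6 CPM in arthritic CD200+ libraries. Among the CD200+ libraries 4 were above every CD105+ library, and library 6, the one with the largest spike-in share, lay below all of them. The log2 fold change was -1.16 (SE 0.579, edgeR adjusted p = 0.221), and without library 6 it was -1.46 (adjusted p = 0.0304). Dcn passed in just that 1 of the 14 fits that left out a library, with adjusted p up to 0.399. Of all 24 alternative fits 2 called it, the other being limma voom (-1.86, adjusted p = 0.00405), which called 30.8% of all genes. With spike-in library sizes its change was -0.38 (adjusted p = 0.824). Bgn was at 39.3, 225, 409.9, 174 and 152 CPM in CD105+ libraries, against 126, 413, 669, 419 and 809.7 CPM in arthritic CD200+ libraries. The ranges overlapped, and the log2 fold change was -1.28 (SE 0.537, edgeR adjusted p = 0.138), and -0.36 with spike-in library sizes (adjusted p = 0.844). Aspn averaged 49.7 ± 36.9 CPM in CD105+ and 143 ± 165 CPM in arthritic CD200+ libraries (SD, n = 5 each), with a log2 fold change of -1.53 (SE 1.30), and -0.58 without library 5.

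Among the keratan sulfate members and Prelp, Omd and Prelp were nearest to the threshold. Omd was at 0.888, 8.12, 1.72, 3.41 and 10.1 CPM in CD105+ libraries, against 0, 54.9, 67.8, 51.5 and 56.0 CPM in arthritic CD200+ libraries. Among the CD200+ libraries 4 lay close together above every CD105+ library, and library 5, with 87.4% spike-ins, had no Omd count. The log2 fold change was -3.24 (SE 1.18, edgeR adjusted p = 0.0912), and -3.53 without library 5 (adjusted p = 0.0208). Omd passed in just that 1 of the 14 fits that left out a library, with adjusted p up to 0.166. Of all 24 alternative fits 3 called it. The others were DESeq2 (-3.36, adjusted p = 0.0134), which called 21.3% of all genes, and edgeR without the 3 libraries over 80% spike-ins (-3.55, adjusted p = 0.0174). With spike-in library sizes its change was -1.65 (adjusted p = 0.524). Prelp was at 10.4, 11.2, 241, 42.4 and 12.3 CPM in CD105+ libraries, against 322, 201, 365, 371 and 325 CPM in arthritic CD200+ libraries. Only library 12 of the CD105+ libraries reached the CD200+ range. The log2 fold change was -2.32 (SE 0.780, edgeR adjusted p = 0.0698), and without library 12 it was -4.05 (adjusted p = 0.000419). Prelp passed in just that 1 of the 14 fits that left out a library, with adjusted p up to 0.140. Of 23 alternative fits with a value 3 called it. The others were edgeR with the strict filter (-2.39, adjusted p = 0.0474) and limma voom (-4.02, adjusted p = 4.97e-05), which called 30.8% of all genes. With spike-in library sizes its change was -1.92 (adjusted p = 0.274).

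Lumican and fibromodulin, which compete for the same site on collagen fibrils, varied widely between libraries of a group. Lum was at 15.8, 255, 235, 31.5 and 57.1 CPM in CD105+ libraries, against 13.9, 184, 469, 587 and 1266 CPM in arthritic CD200+ libraries. The ranges overlapped, and the log2 fold change was -2.08 (SE 1.39, edgeR adjusted p = 0.381). Fmod was at 0, 0, 205, 0 and 1.10 CPM in CD105+ libraries, against 0, 0, 168, 353 and 115 CPM in arthritic CD200+ libraries. It was either near 0 or above 100 CPM in each library, and library 12 again stood with the CD200+ libraries. Its log2 fold change was -1.62 (SE 2.26, edgeR adjusted p = 0.719), -8.71 without library 12 (adjusted p = 0.0689) and -0.78 without library 8. Kera, the lowest of the members, had counts in library 10 of the CD105+ libraries (19.8 CPM) and in libraries 7 and 8 of the arthritic CD200+ libraries (43.1 and 8.97 CPM), and 0 counts in the others of both groups. Its log2 fold change was -1.42 (SE 2.62), and 0.91 without library 7. Without library 10, when every CD105+ library is at 0 counts, the fitted value was -10.05, which is no bound.

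Chondroadherin RNA was at or near 0 in CD105+ libraries except library 12. Chad was at 0, 0, 158, 0 and 0.956 CPM in CD105+ libraries, against 0, 159.8, 144, 20.3 and 124 CPM in arthritic CD200+ libraries. The log2 fold change was -1.49 (SE 1.84, edgeR adjusted p = 0.678) with all libraries and -8.40 (adjusted p = 0.0155) without library 12. Of the 14 fits that left out a library, Chad passed just without library 12, with adjusted p up to 0.797. Without that library 3 members passed as lower, Ogn, Prelp and Chad, in a fit where 1316 of 14837 genes passed (8.87%), 5.1% as lower. The mean over the other 4 CD105+ libraries was 0.239 ± 0.478 CPM for Chad, 0.276 ± 0.551 CPM for Fmod and 19.1 ± 15.6 CPM for Prelp (SD, n = 4).

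Library 12 also differed in markers of cartilage and tendon cells. The summed level of 13 cartilage markers was 6084 CPM in library 12, with 11 of the 13 detected and Col2a1, the collagen of cartilage, at 4275 CPM. The same sum was 16.2 to 24.0 CPM in the other 4 CD105+ libraries, where Col2a1 had 0 counts. It spanned 127 to 4834 CPM in arthritic CD200+ libraries and 454 to 18943 CPM in non-immunized CD200+ libraries. The summed level of 4 tendon markers was 341 CPM in library 12 and 1.70 to 32.1 CPM in the other 4 CD105+ libraries. That sum spanned 28.8 to 560 CPM in arthritic and 62.7 to 880 CPM in non-immunized CD200+ libraries. The part of either list in the Chad, Fmod and Prelp values was not tested.

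**Figure D2:**
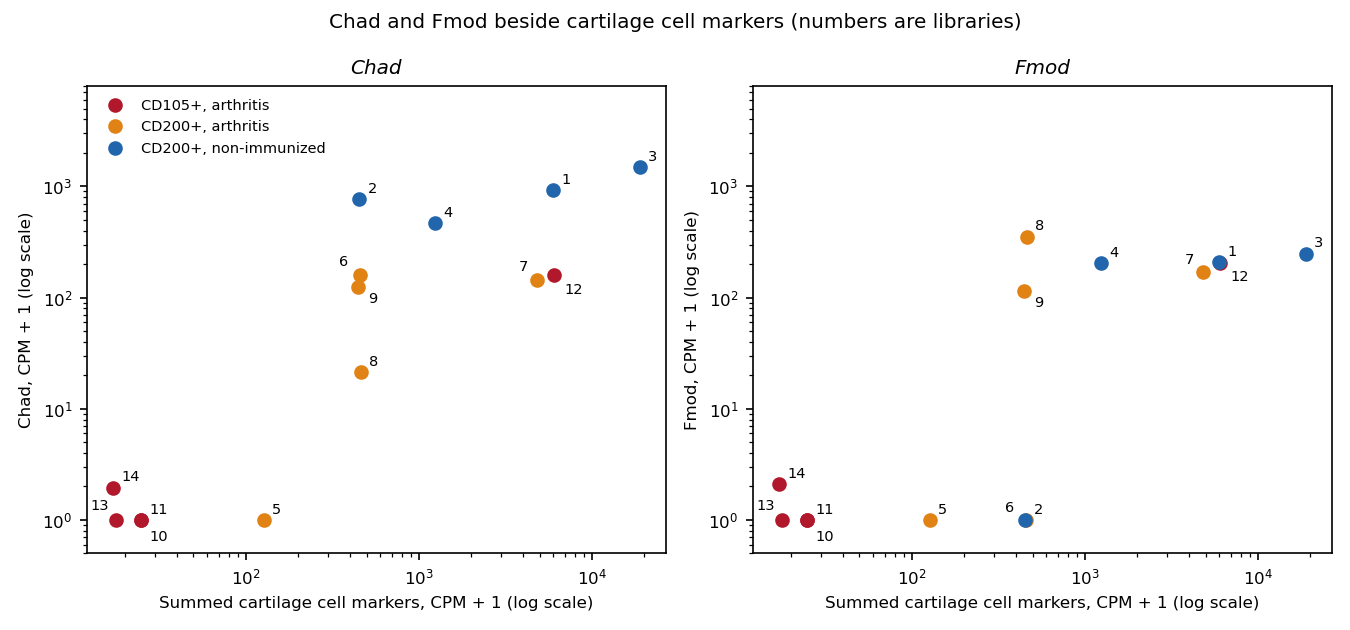
Chad (left) and Fmod (right) against the summed level of 13 cartilage cell markers, both as CPM + 1 on log axes, 1 numbered point per library, with CD105+ arthritic libraries in red, CD200+ arthritic in orange and CD200+ non-immunized in blue. Library 12, at 6084 CPM of cartilage markers, lies away from the other 4 CD105+ libraries, which are at 16.2 to 24.0 CPM.

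Summed levels of some other cell markers also differed between the sorted populations. The summed level of 10 osteoblast and osteocyte markers was 5.25 to 167 CPM in CD105+ libraries, with Runx2, Mepe and Sost at 0 counts in all 5. It was 22407 to 40685 CPM in arthritic CD200+ libraries and 31566 to 115330 CPM in non-immunized CD200+ libraries. Spp1 alone made up most of the sum in each CD200+ library. In library 5 it was 32267 of 32377 CPM, with Runx2, Sp7, Dmp1 and Mepe at 0 counts. Sost had counts in library 1 only. The summed level of 12 erythroid markers was 28235 to 247662 CPM in CD105+ libraries, with all 12 detected, against 47.1 to 10390 CPM in arthritic CD200+ libraries, and 1169 to 10154 CPM in non-immunized CD200+ libraries. The summed level of 7 skeletal muscle markers was 0.444 to 14.1 CPM in CD105+ libraries, with Myh4, Ckm and Pax7 at 0 counts, against 379 to 995 CPM in arthritic and 155 to 985 CPM in non-immunized CD200+ libraries. The summed level of 9 synovial sublining markers was 137 to 661 CPM in CD105+ libraries, with 8 of the 9 detected and Pi16, which had counts in just 2 CD200+ libraries, at 0 counts, against 674 to 1838 CPM in arthritic and 579.9 to 3246 CPM in non-immunized CD200+ libraries. Within arthritis 0 of 7 tested sublining markers passed. Cxcl12 was at 20.5 to 574 CPM in CD105+ and 432 to 982 CPM in arthritic CD200+ libraries. Mfap5 was at 20.4 to 144 CPM in CD105+ libraries, and at 0 to 19.9 CPM in arthritic CD200+ libraries other than library 5 (752 CPM). For 6 mural cell markers the sum was 3.77 to 276 CPM in CD105+ libraries, with 5 of the 6 detected and Myh11 at 0 counts, against 369 to 1489.8 CPM in arthritic and 313 to 1048 CPM in non-immunized CD200+ libraries. Synovial lining markers, 6 in all, ran the other way by median. Their sum had a median of 2282 CPM in CD105+, 702 CPM in arthritic CD200+ and 178 CPM in non-immunized CD200+ libraries. The ranges overlapped, at 116 to 5706, 71.9 to 2022 and 39.9 to 1612 CPM. Within arthritis 4 lining markers were higher and 2 lower in CD105+ cells, and 0 passed. The part of these marker lists in the lower proteoglycan levels of CD105+ cells was not tested.

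Arthritic CD105+ cells differed from non-immunized CD200+ cells in 4 members, Ogn, Bgn, Omd and Prelp, all lower in CD105+ cells. By edgeR 13.2% of all genes passed in this comparison, and 7.63% passed as lower. The median log2 fold change of the members was -2.65, against -0.24 for all genes. In 6 members, Dcn, Bgn, Omd, Ogn, Prelp and Chad, every CD105+ library lay below every non-immunized CD200+ library, a pattern that held for 11.5% of all genes. The CD105+ libraries are the same as above, so this comparison shares them with the previous one and is not a separate test of their level.

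Ogn was at 426, 199, 298 and 206 CPM in non-immunized CD200+ libraries, all above the 69.8 CPM of the highest CD105+ library. It fell 8.38-fold (log2 fold change -3.07, SE 0.520, edgeR adjusted p = 0.00251). Bgn averaged 200.0 ± 136 CPM in CD105+ cells (SD, n = 5) and 981 ± 281 CPM in non-immunized CD200+ cells (SD, n = 4), where the libraries were at 1158, 647, 1261 and 857 CPM. The Bgn groups did not overlap, and the log2 fold change was -2.29 (SE 0.572, edgeR adjusted p = 0.0188). Leaving out library 3, a non-immunized one, ended the Bgn call (log2 fold change -2.10, adjusted p = 0.0513).

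Omd was at 469, 24.9, 57.2 and 138 CPM in non-immunized CD200+ libraries, against at most 10.1 CPM in CD105+ libraries. The groups did not overlap, although the non-immunized values themselves spread widely. The log2 fold change was -5.14 (SE 1.31, edgeR adjusted p = 0.0204). The Omd call did not hold without library 1, the highest one (log2 fold change -3.87, adjusted p = 0.0760), or without CD105+ library 13 (adjusted p = 0.0501). Prelp was at 343, 492, 624 and 576 CPM in non-immunized CD200+ libraries, above the 241 CPM of library 12 and the 10.4 to 42.4 CPM of the other CD105+ libraries. Its log2 fold change was -3.00 (SE 0.823, edgeR adjusted p = 0.0288), and its call held in 8 of the 14 fits that left out a library, with adjusted p up to 0.0671 without library 2, 3, 4, 10, 13 or 14. The Prelp call was also lost in the fit of the 2 groups compared (adjusted p = 0.0708) and without the 3 libraries over 80% spike-ins (adjusted p = 0.0583).

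Of the members that did not pass, Dcn averaged 761 ± 410.1 CPM in CD105+ cells (SD, n = 5) and 2554 ± 664 CPM in non-immunized CD200+ cells (SD, n = 4). Its log2 fold change was -1.75 (SE 0.610, edgeR adjusted p = 0.0723), and -1.50 (adjusted p = 0.0391) without the 3 libraries over 80% spike-ins. Chad had a log2 fold change of -4.84 (SE 2.15, edgeR adjusted p = 0.151), and -11.74 (adjusted p = 0.00410) without library 12. Chad passed in no other fit that left out 1 library (adjusted p up to 0.242). Lum (-3.09, adjusted p = 0.183), Fmod (-1.998, adjusted p = 0.629), Kera (-1.91, adjusted p = 0.696) and Aspn (-0.85, adjusted p = 0.726) had log2 fold changes that did not pass. Lum passed without the 3 libraries over 80% spike-ins (-3.48, adjusted p = 0.0216). Fmod had -9.08 without library 12 (adjusted p = 0.0535), and Aspn -0.14 without library 1. Without library 10, the one CD105+ library with Kera counts, the fitted Kera value was -10.56 (adjusted p = 0.127), which is no bound. With spike-in library sizes none of the 10 members passed, and the median of all genes moved by 1.45. The log2 fold changes were then -2.24 for Ogn (adjusted p = 0.177), -1.10 for Bgn (0.560), -3.57 for Omd (0.201) and -2.41 for Prelp (0.186), and Aspn turned to 0.17. Relative to the median of all genes under that scaling, they were -3.45 for Ogn, -2.31 for Bgn, -4.78 for Omd and -3.62 for Prelp. Such relative values take out the overall shift of the scaling, so they are no separate check of the calls.

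**Figure D3:**
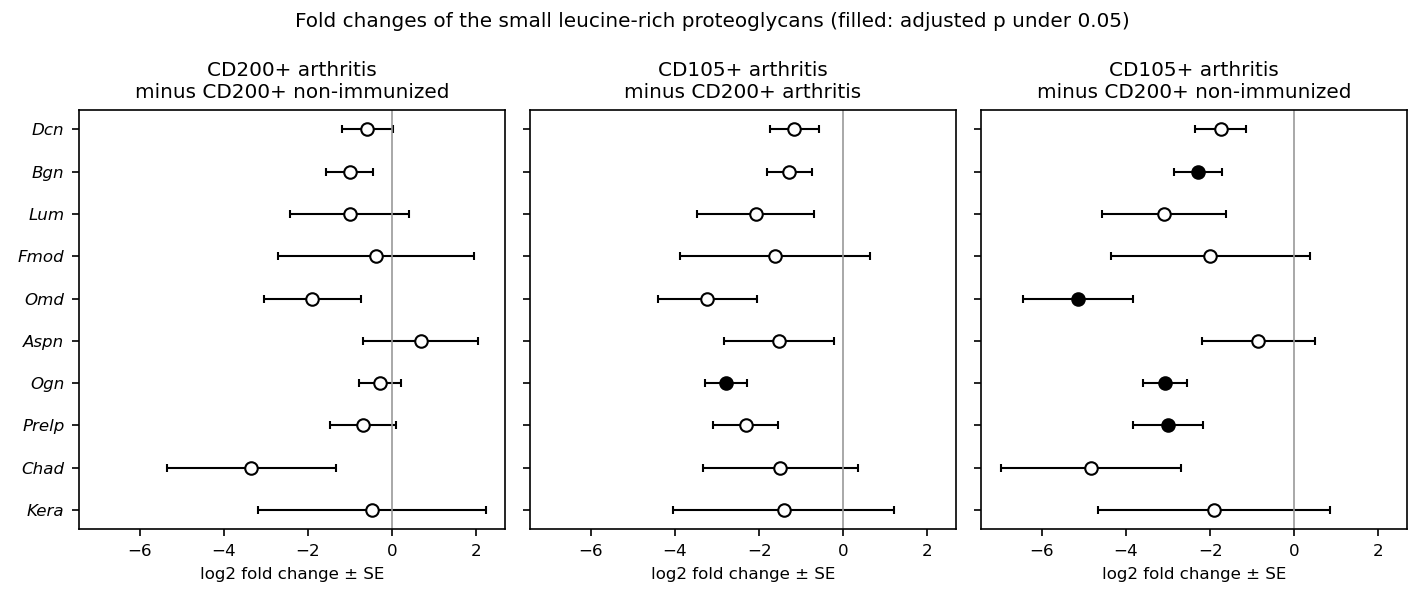
Log2 fold change ± SE of each member in the 3 comparisons, from the edgeR fit over 15015 genes; filled points have an adjusted p under 0.05. No point is filled for arthritic against non-immunized CD200+ cells, 1 (Ogn) for CD105+ against CD200+ cells in arthritis, and 4 (Bgn, Omd, Ogn and Prelp) for arthritic CD105+ against non-immunized CD200+ cells.

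Between arthritic and non-immunized CD200+ cells, none of the 10 members passed the test, and neither did any other gene. By edgeR 0% of 15015 genes passed (lowest adjusted p = 0.636). Without adjustment, 915 genes (6.09%) and 0 members had a p under 0.05. DESeq2 called 344 genes (1.92%) and limma voom with sample weights 4 (0.0266%), with 0 members in each. The log2 fold changes of 9 members were below 0 and Aspn was above 0, with a median of -0.64 for the members against -0.10 for all genes. Aspn fell below 0 without library 5 (-0.26) and under limma voom (-0.10), Kera was at 0.01 under spike-in scaling, and Lum was at 0.07 under limma voom.

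Chondroadherin had the largest fold difference of the 10. Chad was at 0, 159.8, 144, 20.3 and 124 CPM in arthritic CD200+ libraries, against 922, 770.4, 1481 and 468 CPM in non-immunized CD200+ libraries. Every arthritic library lay below every non-immunized library, and Chad was the member with that pattern, which held for 1.18% of all genes. The mean was 89.7 ± 74.0 CPM in arthritic cells (SD, n = 5) and 910.3 ± 425 CPM in non-immunized cells (SD, n = 4). The log2 fold change was -3.34 (SE 2.02, edgeR unadjusted p = 0.120, adjusted p = 1), and it stayed between -3.77 and -3.01 in 24 alternative fits, none of which called it.

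Most cartilage cell markers were also lower in arthritic CD200+ cells, 11 of the 12 tested, with a median log2 fold change of -2.71 against -0.10 for all genes. None of these markers passed. The cartilage marker sum was 127, 455, 4834, 463 and 446 CPM in arthritic libraries 5 to 9, against 6017, 454, 18943 and 1236 CPM in non-immunized libraries 1 to 4. These sums rest on different genes. In library 5 the sum was Sox9 alone, and in library 6 most of it was Col10a1 (311 CPM). Comp made up most of it in library 2 (348 CPM, with Col2a1 at 0 counts) and in library 4 (733 CPM). Library 7 had a high marker sum with 144 CPM of Chad, and library 2 a low one with 770.4 CPM of Chad. The osteoblast and osteocyte marker sum, most of it Spp1, was 22407 to 40685 CPM in arthritic and 31566 to 115330 CPM in non-immunized CD200+ libraries. All 9 tested markers of that list were lower in arthritic cells, with a median log2 fold change of -1.75, and none passed. The part of either list in the Chad difference was not tested.

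Of the other members, Bgn had the smallest p. Bgn was at 126, 413, 669, 419 and 809.7 CPM in arthritic CD200+ libraries, against 1158, 647, 1261 and 857 CPM in non-immunized ones, with overlap through libraries 7 and 9. Its log2 fold change was -1.01 (SE 0.559, edgeR unadjusted p = 0.0928, adjusted p = 0.981). Omd had a log2 fold change of -1.90 (SE 1.16), and -0.66 without library 1, which, at 469 CPM, lay far above the other 3 non-immunized libraries at 24.9 to 138 CPM. Ogn had the smallest one among those below 0, -0.29 (SE 0.495), with 231 ± 110.0 CPM in arthritic cells (SD, n = 5) and 282 ± 106 CPM in non-immunized cells (SD, n = 4). Dcn (-0.59, SE 0.603), Prelp (-0.68, SE 0.785), Lum (-1.01, SE 1.41), Fmod (-0.37, SE 2.33), Kera (-0.49, SE 2.71) and Aspn (0.67, SE 1.37) had log2 fold changes smaller than their SE. Leaving out 1 library moved Lum to -0.11 (library 1) or -1.70 (library 9), Fmod to -1.22 (library 8) or -0.05 (library 5), Kera to -2.66 (library 7) and Aspn to 1.32 (library 1). Lum had 0 counts in library 2, beside 2425, 518 and 1122 CPM in the other non-immunized libraries, and Aspn had 413 CPM in library 5 and 0 counts in library 6.

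Levels were also divided by the merged length of all annotated exons of a gene, 5.84 kb for Dcn, 6.1 kb for Bgn and 1.68 kb for Chad. This length can exceed that of the transcript present, so orders between genes depend on it. By this measure decorin led in arthritic cells of both sorts. In CD105+ cells Dcn was at 130 ± 70.2 CPM per kb, followed by Lum at 48.6, Bgn at 32.8 and Aspn at 21.1, and Omd and Kera came last at 2.15 and 1.73. In arthritic CD200+ cells Dcn was at 291 ± 158 CPM per kb, followed by Lum at 206, Ogn at 90.1 and Prelp at 87.6, with Omd at 20.5 and Kera at 4.57 last. In non-immunized CD200+ cells Chad came first at 542 ± 253 CPM per kb, ahead of Dcn at 437 and Lum at 415. Aspn at 38.1 and Kera at 6.42 were last. Before division by length, Dcn was higher there, at 2554 CPM against 910 CPM for Chad. In each group every member's range over libraries overlapped that of its neighbour in the order, so these orders are not resolved between neighbours.

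As a share of the summed CPM per kb of the 10 genes, Chad made up 3.18 ± 6.84% in CD105+ cells (SD, n = 5), 7.45 ± 9.01% in arthritic CD200+ cells (SD, n = 5) and 28.0 ± 12.3% in non-immunized CD200+ cells (SD, n = 4). The ranges of the CD200+ groups overlapped, at 0 to 22.5% in arthritic and 16.1 to 42.9% in non-immunized libraries. Dcn made up 47.0 ± 19.97% of it in CD105+ libraries, 29.0 ± 15.2% in arthritic CD200+ libraries and 24.6 ± 13.2% in non-immunized CD200+ libraries. Ogn held a narrow share within the CD105+ libraries (3.35 to 5.72%) and within the non-immunized CD200+ libraries (4.62 to 6.08%), and a wide one in arthritic CD200+ libraries (2.99 to 20.05%). Libraries 2, 5 and 6, with the high spike-in shares, hold 10 of the zero values, and a gene with 0 counts adds nothing to these sums. The size of each share also depends on the merged exon lengths.

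**Figure D4:**
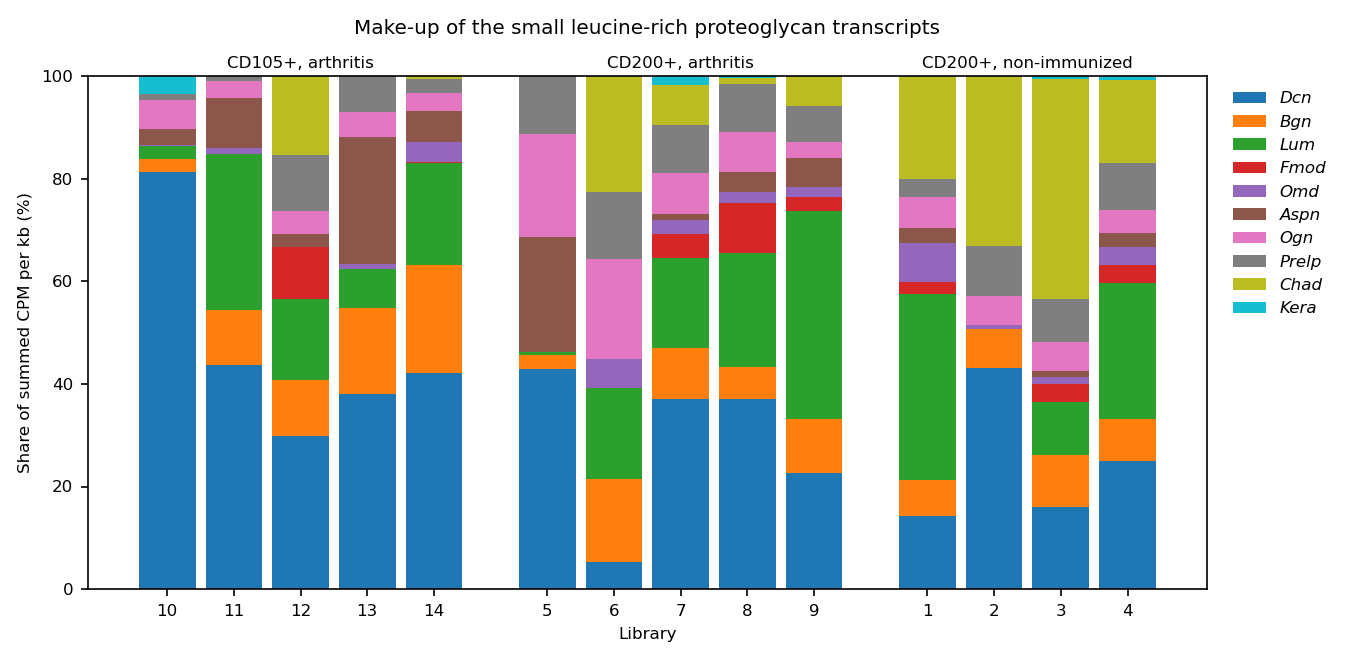
Share of each member in the summed CPM per kb of the 10 genes, 1 stacked bar per library, with CD105+ arthritic, CD200+ arthritic and CD200+ non-immunized libraries from left to right. Chad takes 16.1 to 42.9% in non-immunized CD200+ libraries and 0 to 22.5% in arthritic CD200+ libraries, and Dcn takes 81.4% in library 10.

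Members that neighbour each other in the genome were compared over the 9 CD200+ libraries, in log2(CPM + 1), with exact permutation tests (two-sided) adjusted over 5 pairs. None passed. Fmod and Prelp on chromosome 1 had Pearson's r = 0.427 (exact permutation p = 0.259, adjusted 0.798) and Spearman's rho = 0.576 (p = 0.113, adjusted 0.564). Kera and Lum had r = 0.386 (exact permutation p = 0.339, adjusted 0.798) and rho = 0.128 (p = 0.760, adjusted 0.776). Lum and Dcn had r = -0.093 (exact permutation p = 0.798, adjusted 0.798) and rho = -0.15 (p = 0.708, adjusted 0.776), and Ogn and Omd r = -0.160 (exact permutation p = 0.649, adjusted 0.798) and rho = 0.20 (p = 0.613, adjusted 0.776). Omd and Aspn had r = -0.089 (exact permutation p = 0.785, adjusted 0.798) and rho = 0.117 (p = 0.776, adjusted 0.776).

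Without the 2 libraries farthest from the median of the first gene, r was 0.762 for Fmod and Prelp, 0.297 for Kera and Lum, 0.70 for Lum and Dcn, -0.806 for Ogn and Omd and 0.58 for Omd and Aspn, with adjusted p of 0.161 or more. Over all 45 pairs of members, 34 had r above 0, with a median of 0.267. The pairs with the highest r were Chad with Bgn (0.930) and Omd with Bgn (0.865), and these libraries share the 3 with high spike-in content, so the values are a description. As the gene whose pattern over the 9 CD200+ libraries was most like that of each member, among 8769 protein-coding genes with a mean of at least 10 CPM, the rule named Tnmd for Kera (r = 0.886), Stxbp3 for Ogn (0.976), Tgds for Chad (0.984), Mfsd8 for Prelp (0.929) and Sdk2 for Bgn (0.966). For Dcn it named Smarcd2 (0.991), for Lum Nlgn2 (0.989), for Fmod Mcur1 (0.993), for Omd Stk17b (0.975) and for Aspn Heatr6 (0.985). Between 0 and 303 genes had r over 0.9 with a given member, the most with Dcn. Each named r is the highest of 8769 over 9 libraries, 3 of them with high spike-in content, so these values are also a description.

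Other genes of the matrix around these proteins were followed in 6 lists. None of their tested members passed in arthritic against non-immunized CD200+ cells, and none passed as higher in CD105+ cells in either comparison. Their counts of lower genes stand beside 6.48% of all genes tested that passed as lower against arthritic CD200+ cells, and 7.63% against non-immunized CD200+ cells.

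Of 9 other genes of the family, 4 were tested, and 2 of these, Ecm2 and Podnl1, were lower in CD105+ cells in both comparisons. Ecm2, which lies 11.7 kb from Aspn in the same cluster, was at 6.86 ± 4.60 CPM in CD105+ cells (SD, n = 5), 42.6 ± 29.1 CPM in arthritic CD200+ cells (SD, n = 5) and 63.4 ± 28.5 CPM in non-immunized CD200+ cells (SD, n = 4). Its log2 fold changes were -2.63 (edgeR adjusted p = 0.0168) against arthritic and -3.20 (adjusted p = 0.00726) against non-immunized CD200+ cells. Podnl1 had 0 counts in all CD105+ libraries, against means of 5.92 CPM in arthritic and 30.0 CPM in non-immunized CD200+ cells. CD200+ libraries 2, 5 and 6 also had 0 counts of Podnl1. By group means Podnl1 was at least 124-fold lower in CD105+ than in arthritic CD200+ cells and at least 629-fold lower than in non-immunized ones. These bounds use a floor of 3 counts over the CD105+ group and cover counting error only. The edgeR adjusted p-values of Podnl1 were 0.0470 and 0.0251. The first of these calls was lost in 11 of 14 fits that left out a library (adjusted p up to 0.0852), and the second in 1 (0.0521).

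None of the 22 tested enzymes that build or modify glycosaminoglycan chains passed in any comparison, of 27 listed. Their median log2 fold change was -0.90 in CD105+ against arthritic CD200+ cells and -1.40 against non-immunized CD200+ cells. Of 14 collagens that the family binds, 0 passed within arthritis and 3 passed as lower against non-immunized CD200+ cells. Col1a2 and Col1a1, the chains of type I collagen, had log2 fold changes of -3.81 (edgeR adjusted p = 0.0100) and -4.34 (adjusted p = 0.0165), and Col6a1 had -2.35 (adjusted p = 0.0282), a call that was lost in 5 of 14 fits that left out a library (adjusted p up to 0.0870). Col1a2 was at 687 ± 403 CPM in CD105+ cells (SD, n = 5) and 9673 ± 4749 CPM in non-immunized CD200+ cells (SD, n = 4).

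Of 14 tested proteases and collagen-processing proteins, 3 were lower in CD105+ than in arthritic CD200+ cells, and 6 were lower than in non-immunized CD200+ cells, beside 6.48% and 7.63% of all genes. Mmp13, a collagenase, was at 0.171 ± 0.242 CPM in CD105+ cells (SD, n = 5), 1633 ± 1523 CPM in arthritic CD200+ cells (SD, n = 5) and 3373 ± 1057 CPM in non-immunized CD200+ cells (SD, n = 4). The aggrecanase gene Adamts5 had log2 fold changes of -4.03 (edgeR adjusted p = 0.0145) within arthritis and -4.09 (adjusted p = 0.0131) against non-immunized CD200+ cells. Adamts2, which trims procollagen, had -2.19 (adjusted p = 0.0209) and -3.49 (adjusted p = 0.00255). Bmp1, the protease that processes procollagens and biglycan, passed against non-immunized CD200+ cells (-2.19, adjusted p = 0.0119).

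Of 16 tested receptors and ligands of the family, 8 were lower in CD105+ cells in each comparison, where 6.48% of all genes passed as lower within arthritis and 7.63% against non-immunized CD200+ cells. Bmp4, a growth factor, was at 0.355 ± 0.677 CPM in CD105+ cells (SD, n = 5), 144 ± 82.6 CPM in arthritic CD200+ cells (SD, n = 5) and 235 ± 56.4 CPM in non-immunized CD200+ cells (SD, n = 4). Tgfb2, a ligand that decorin and biglycan bind, had a log2 fold change of -5.38 (edgeR adjusted p = 0.0169) within arthritis. Itgb1, a shared chain of collagen-binding integrins, had -1.31 (adjusted p = 0.00604) within arthritis and -1.43 (adjusted p = 0.00420) against non-immunized CD200+ cells. Met, a receptor reported to bind decorin, had 0 counts in CD105+ libraries and also in arthritic CD200+ library 6. By group means Met was at least 1023-fold lower in CD105+ than in arthritic CD200+ cells and at least 1079.5-fold lower than in non-immunized CD200+ cells, bounds that cover counting error only. Ccn4 had -4.48 (adjusted p = 0.0138) against non-immunized CD200+ cells. None of 7 tested large proteoglycans and lubricin passed. Except for Mmp13, Bmp4 and Met, every fold change named from these lists lost its call under spike-in scaling.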

How the data were processed

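The 14 libraries are full-length cDNA libraries (SMART-Seq v4, then Nextera XT) of lysed cell pools with ERCC spike-in RNA, per the labels' protocols. Named in the submitters' processing notes are the tools HISAT2, StringTie, cutadapt and edgeR and the builds mm10 and GRCm38, without versions or roles. The authors deposited a table of whole-number read counts per gene with 47821 entries, 92 of them spike-ins, and a filtered table of 14322 genes with the same counts, used here only to choose genes in an alternative.

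Spike-ins were removed, filterByExpr (minimum count 10) kept 15015 genes, TMM factors were computed, and a robust quasi-likelihood model with 3 group means was fitted to all libraries in edgeR 4.0.16 (R 4.3.3; common biological coefficient of variation 1.28). The two-sided p-values were adjusted by Benjamini-Hochberg over all genes tested, with a threshold of 0.05. The SE is the absolute log2 fold change divided by the square root of F. CPM per kb uses the merged length of all GENCODE M21 exons of a gene, not the length of a single transcript. Floors cover counting error only. Correlations used SciPy 1.17.1. The script was tested on simulated data.

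The members and all lists were chosen with earlier results of these data known. Named were all 10 members, up to 4 genes per list of 94 listed genes and comparison by smallest p (values are given for those that passed), the most similar gene per member, and sort markers. Alternatives were RLE factors, spike-in library sizes, no filter, a strict filter (10 CPM in 4 libraries), the genes of the filtered table, no robust shrinkage, a fit of the 2 groups compared, DESeq2 1.42.0, limma 3.58.1 voom with sample weights, leaving out each library, and leaving out the 3 libraries over 80% spike-ins. Library numbers run on from group to group, so they do not show whether libraries of different groups share an animal.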

Additional observations from a re-analysis of the deposited data

Results flagged for a closer look

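In 6 of 30 sets of a member and a group, the highest or lowest library lay farther from the rest than Dixon's 95% critical value allows (gap to the nearest library over the whole range, above 0.71 for 5 libraries). For normally distributed values chance flags about 1 in 20 such groups. These CPM values are uneven and include zeros, and the sets share libraries, so that rate need not apply here.

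Library 12 was the high library of the CD105+ group in 3 of these sets. Its gap ratio was 0.995 for Fmod (205 CPM, with the next library at 1.10 CPM), 0.994 for Chad (158 CPM, next 0.956 CPM) and 0.861 for Prelp (241 CPM, next 42.4 CPM). The same library had 6084 CPM of cartilage cell markers and 341 CPM of tendon markers, and the part of these in the 3 values was not tested.

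Kera stood out in library 10 of the CD105+ group (19.8 CPM, with 0 counts in the other 4; ratio 1) and in library 7 of the arthritic CD200+ group (43.1 CPM, next 8.97 CPM; ratio 0.792). Omd had 0 counts in library 5 of the arthritic CD200+ group, with the next library at 51.5 CPM (ratio 0.76); spike-ins made up 87.4% of library 5.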

How the results depend on the processing

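Each comparison was refitted under 24 alternatives. Of 715 member fold changes under alternatives, 668 kept direction and side of the threshold, 22 newly passed, 16 no longer passed and 9 reversed. Of 525 for list genes, 490 kept both and 35 no longer passed.

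The number of genes called moved by over 1.5 times under 3 alternatives and without some libraries. For arthritic against non-immunized CD200+ cells it was 344 with DESeq2 and 4 with limma voom (0 in the edgeR fit above), and 0 to 2 when each library was left out. For CD105+ against CD200+ cells in arthritis (1692) it was 545 with spike-in library sizes, 3547 with DESeq2, 4624 with limma voom and 1090 to 1794 when each library was left out. For arthritic CD105+ against non-immunized CD200+ cells (1982) it was 278, 4067, 4993 and 1308 to 2394. The lowest count in both came without CD105+ library 14.

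The number of members called is given with the share of all genes called in the same fit. For CD105+ against CD200+ cells in arthritis (1) it was 0 with spike-in library sizes (3.63% of all genes). It was 2 with the strict filter (14.9%), with DESeq2 (21.3%) and without the 3 libraries over 80% spike-ins (12.4%). With limma voom it was 6 (30.8%, and 16.7% as lower). When each library was left out it was 1 to 3 (7.39 to 11.5%), with 3 without library 12 (8.87%). For arthritic CD105+ against non-immunized CD200+ cells (4) it was 0 with spike-in library sizes (1.85%) and 7 with limma voom (33.3%, and 18.6% as lower). When each library was left out it was 2 to 5 (8.87 to 16%), with 2 without library 3 (9.05%) or library 13 (9.15%). For arthritic against non-immunized CD200+ cells it was 0 under all 24.

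Reversed log2 fold changes between arthritic and non-immunized CD200+ cells were 0.071 for Lum and -0.10 for Aspn with limma voom, -0.26 for Aspn without the 3 libraries over 80% spike-ins and 0.011 for Kera with spike-in library sizes. With each library left out, Aspn spanned -0.26 to 1.32 and Kera -2.66 to 0.22. For CD105+ against CD200+ cells in arthritis, Aspn was 0.14 with spike-in library sizes and Kera spanned -10.05 to 0.91 with each library left out. For arthritic CD105+ against non-immunized CD200+ cells, Aspn was 0.17 with spike-in library sizes. Without the 2 farthest libraries, r was 0.70 for Lum and Dcn and 0.58 for Omd and Aspn, against values below 0 over all 9. The cause of these changes was not tested.

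DESeq2 gave no adjusted p for Prelp, and Kera has no value in the fits of the 2 groups compared where these hold CD105+ cells. No paired analysis was made because the labels do not say whether libraries of different groups come from the same animals. Depth limits the 3 libraries over 80% spike-ins most, where 10 of 30 member values were 0.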
